A study of Homo sapiens with 2 samples.

Results

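The strong repeated coding sequence peaks were 644 regions of messenger RNA in 285 gene entries. They were the peaks with 50 or more reads in each of 2 libraries that overlapped by at least 1 nt on the same strand and whose summit, the centre of the peak's highest stretch, lay in annotated coding sequence (CDS) of the gene named for the peak. Mitochondrial transcripts and genes with symbols beginning HIST, RPL or RPS were left out. The rule took 746 of 48401 CDS peaks of the same kinds of genes in replicate 1 (1.54%) and 778 of 55391 in replicate 2 (1.4%), out of 100792 and 109413 peaks of all kinds. The regions were thus chosen by their reads in both libraries, so the reads below are a description, and nothing is tested with them. Of the 644 regions, 635 held such a peak of each library, and 9 held one of 1 library only, because the overlapping peak of the other had its summit outside the CDS or under another gene entry. Some loci are listed under more than 1 gene entry, such as MIF with AP000350.4 and CALM2 with AC073283.3. Joined by position, the 644 regions came to 630 loci.

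The series held 2 libraries of 1 group, labelled TRACER, made from HEK293T, an established line of human embryonic kidney cells. All cells were grown in DMEM with 10% serum and exposed to 3 ug/mL doxycycline over 24 hours. Doxycycline serves in many lines to induce a transgene. Neither a transgene nor a promoter or clone is named in the labels, and the meaning of TRACER is not given there. Cytoplasmic RNA was taken with Trizol and made into libraries by a Qiagen microRNA protocol, and the series set out to identify the parts of RNAs with which CCR4-NOT associates. No untreated or input library was analysed here, and RNA levels were not measured, so reads in a peak cannot be told apart from the amount of the RNA. The labels do not say whether the 2 libraries came from separate cultures, so their spread may be only technical.

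CCR4-NOT is the main complex that shortens the poly(A) tails of messenger RNA, which silences the message and starts its decay. It is built on the scaffold CNOT1, and its deadenylase subunits include CNOT7. The complex reaches many messages through adaptor proteins, such as Pumilio and the microRNA machinery, that bind the 3′ untranslated region (3′ UTR). It has also been found on ribosomes, where the CDS is read codon by codon. The amino acids glutamate and aspartate, called acidic, are the pair whose codons begin with GA and end in A or G (glutamate) or in T or C (aspartate).

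The sequences under the strongest summits show what most of the results below count. Each line gives the 17 codons, read in frame 5′ to 3′, centred on the codon that holds the summit, from the GENCODE 29 transcript, with T for U. Capitals mark codons of glutamate and aspartate. The first set is from the 10 genes whose region had the most reads in the library where it was lower. Of these TUBA1B, TUBA1A and CNOT7 are not printed, and held 7, 7 and 4 acidic codons. Over all loci 245 of 582 windows held 0 to 2 acidic codons.
NPM1: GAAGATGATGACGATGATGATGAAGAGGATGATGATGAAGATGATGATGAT
ANP32B: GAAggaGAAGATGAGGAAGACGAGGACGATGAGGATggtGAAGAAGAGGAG
HNRNPA2B1: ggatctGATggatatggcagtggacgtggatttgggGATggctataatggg
UBB: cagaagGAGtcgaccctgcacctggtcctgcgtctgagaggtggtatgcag
NCL: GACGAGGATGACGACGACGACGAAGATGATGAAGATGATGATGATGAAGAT
PTMA: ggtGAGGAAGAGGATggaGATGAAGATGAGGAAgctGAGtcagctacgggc
SET: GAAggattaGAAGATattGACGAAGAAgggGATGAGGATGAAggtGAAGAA
In NPM1 and NCL all 17 codons were acidic, in ANP32B 15, in SET 12 and in PTMA 10. UBB held 1 and HNRNPA2B1 held 2, and the HNRNPA2B1 window instead holds many glycine codons, which begin with GG.

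On GRCh38 these windows lay at chr5:171392938-171400162 (NPM1, plus strand, exon 6 of 11 at the summit), chr9:98005153-98011320 (ANP32B, plus, exon 5 of 7), chr7:26195866-26196407 (HNRNPA2B1, minus, exon 7 of 11), chr17:16382091-16382141 (UBB, plus, exon 2 of 2), chr2:231460700-231460750 (NCL, minus, exon 4 of 14), chr2:231711983-231712492 (PTMA, plus, exon 4 of 5) and chr9:128693959-128694009 (SET, plus, exon 7 of 8). The NPM1, ANP32B, HNRNPA2B1 and PTMA windows crossed a splice junction, so the genomic span includes an intron. All lay in CDS.

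The second set holds the windows richest in purines (A and G) or in acidic codons that were not in the first.
CANX: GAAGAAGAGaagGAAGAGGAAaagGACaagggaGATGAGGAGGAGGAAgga
PSMD7: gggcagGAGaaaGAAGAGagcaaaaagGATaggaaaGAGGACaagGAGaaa
NAP1L1: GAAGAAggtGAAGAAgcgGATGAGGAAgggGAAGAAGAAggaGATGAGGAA
ANP32A: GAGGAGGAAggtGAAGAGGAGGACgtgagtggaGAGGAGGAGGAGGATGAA
HMGB1: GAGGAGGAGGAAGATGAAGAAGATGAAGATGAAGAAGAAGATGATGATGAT
NPM1, next region: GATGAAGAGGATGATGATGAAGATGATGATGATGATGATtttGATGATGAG
CENPB: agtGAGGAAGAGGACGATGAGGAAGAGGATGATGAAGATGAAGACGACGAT
They lay at chr5:179724720-179724770 (CANX, plus, exon 13 of 15), chr16:74305626-74305676 (PSMD7, plus, exon 7 of 7), chr12:76049224-76049779 (NAP1L1, minus, exon 14 of 16), chr15:68780465-68782997 (ANP32A, minus, exon 5 of 7), chr13:30461363-30461413 (HMGB1, minus, exon 5 of 5), chr5:171392956-171400180 (NPM1, plus, exon 7 of 11) and chr20:3784894-3784944 (CENPB, minus, its single exon). The NAP1L1, ANP32A and NPM1 windows span an intron. This NPM1 window, of codons 168 to 184, overlaps the first one, of codons 162 to 178. Purines made up 96.1% of the CANX window, 92.2% of the PSMD7 and NAP1L1 windows and 90.2% of the ANP32A window. The HMGB1 window and the next NPM1 window held no C at all. The acidic codons differed between genes in their last base, with GAT leading in NPM1 and NCL and GAG and GAA in CANX.

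The region with the most reads lay in NPM1, which encodes nucleophosmin, a histone and ribosome chaperone of the nucleolus, at chr5:171392925-171392979 with 356 reads in replicate 1 and 327 in replicate 2. ANP32B, an acidic histone chaperone, followed at chr9:98011270-98011370 with 292 and 308. HNRNPA2B1, an RNA-binding protein of the heterogeneous nuclear ribonucleoprotein (hnRNP) family, had 265 and 265 at chr7:26195846-26195910. These 3 differed by less than 10% between libraries. UBB, which encodes ubiquitin, had 264 and 291 reads at chr17:16382086-16382174. The alpha-tubulin gene TUBA1B had 253 and 272 at chr12:49127972-49128098, and its paralogue TUBA1A 241 and 267 at chr12:49185026-49185102. The 25 nt at the TUBA1A summit also occur in TUBA1B, so reads may come from either gene. Those at the NPM1 and UBB summits also occur in NPM1P27 and UBBP4, and those at the PTMA summit in 3 other genes. Whether longer reads tell such genes apart was not tested.

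Nucleolin (NCL), the other major acidic protein of the nucleolus, had 214 and 248 reads at chr2:231460670-231460793. Prothymosin alpha (PTMA), a small acidic chromatin protein, had 204 and 290 at chr2:231712442-231712517. The histone chaperone SET had 193 and 204 at chr9:128693901-128694035. CNOT7 had 196 and 282 at its strongest region, on chromosome 8. On the log2 scale PTMA was 0.51 and CNOT7 0.52 higher in replicate 2, wider gaps than in the other leading genes.

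Over all regions the 2 libraries gave much the same reads and places, as far as the rule allows, since it asked for 50 reads in each. The peaks held 62155 reads in replicate 1 and 70216 in replicate 2 when summed, which was 13.6% and 12.6% of the reads in CDS peaks. The median was 71 and 75.5 reads, and the highest 356 and 327, beside medians of 5 and 6 over all CDS peaks. Peaks of the rule had a median width of 51 and 50 nt, against 27 nt for all CDS peaks in each library. Merged regions ran from 12 to 223 nt with a median of 65, and the widest was in EIF3A, the largest subunit of initiation factor eIF3, with 165 and 159 reads. The deposited p-value per peak was at most 1.58e-11 and 1.09e-11.

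Of the 635 regions with both libraries, 412 had more reads in replicate 2, 206 in replicate 1 and 17 the same. The log2 ratio of replicate 2 to replicate 1 had a median of 0.12 and an SD of 0.32 over regions. In 630 of them (99.2%) it lay within 1. Across these regions log2 reads of the libraries had a Pearson r of 0.821, a description over regions that share genes and were cut at a minimum. Summits were 2 nt apart at the median, within 5 nt in 505 regions (79.5%) and within 10 nt in 565 (89.0%). The plot of reads by library shows the same spread.

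**Figure D1:**
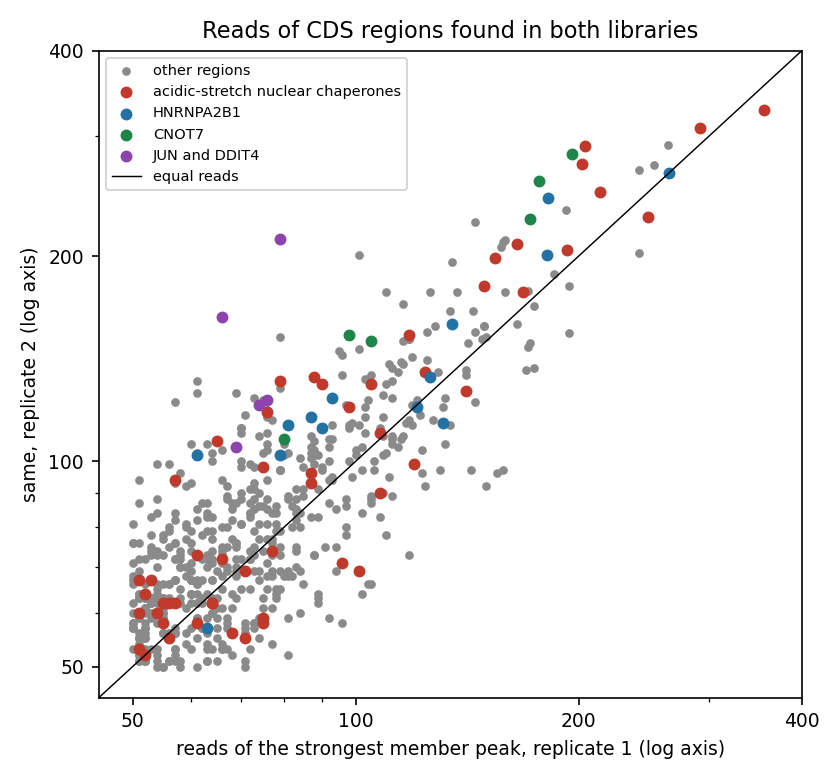
Reads in the strong repeated CDS regions, replicate 1 on the x axis and replicate 2 on the y axis, both on log scales, 1 point per region. The points lie along the line of equal reads from 50 to 356 and 327 reads, with DDIT4 and JUN above it.

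The regions that departed most from that line on the side of replicate 2 were in 2 stress and growth-response genes. DDIT4, a stress-induced inhibitor of mTORC1, had 79 and 212 reads at chr10:72274721-72274782 in replicates 1 and 2, a log2 ratio of 1.42. Its other regions had 69 and 105, and 76 and 123. JUN, an immediate-early transcription factor, had 66 and 163 (log2 ratio 1.30) and, at its other region, 74 and 121. All 5 regions of these genes were higher in replicate 2. H3F3B, a replication-independent histone H3.3 gene, had 61 and 131 at 1 region, but 109 and 102, and 60 and 57, at the others, so within that gene the ratio differed between regions. ENAH, an actin regulator, had 57 and 122, and FBL, the nucleolar methyltransferase fibrillarin, 61 and 126.

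At the other end APRT, a purine salvage enzyme, had 96 and 58 reads, a log2 ratio of -0.73. MTRNR2L12 had 150 and 92 and MTRNR2L8 158 and 97. At these, and at 1 more gene entry of the same family, the 25 nt at the summit also occur in the mitochondrial ribosomal RNA MT-RNR2, so the reads may come from any of these RNAs. ACTB, beta-actin, had 118 and 73 at its lowest-ratio region but 115 and 140 at another. EIF4A1, the helicase of cap-binding complex eIF4F, had 155 and 96 at one region and 105 and 134 at another. With 2 libraries these gaps have no test.

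Members gathered in some genes. Of the 285 gene entries 158 held 1 region and 55 held 2, while 33 held 5 or more and together had 248 of the regions. HNRNPA2B1 led with 14 regions, followed by TUBA1B with 12, the ribosome-bound scaffold RACK1 and gamma-actin (ACTG1) with 11 each, and EIF4A1, TUBA1C and the chaperone HSP90AB1 with 10 each. NCL, the glycolytic enzyme ENO1 and elongation factor EEF2 had 9 each. The 25 nt at the summit also occur in a gene elsewhere in 9 regions of TUBA1B, 9 of TUBA1C and 8 of EIF4A1. The number was 4 in HSP90AB1, 3 in ACTG1, 2 in ENO1, and 0 in HNRNPA2B1, RACK1, NCL and EEF2. Such regions may count reads of another gene. Neighbouring summits in a CDS were 126 nt apart at the median over 353 pairs, and 27 pairs of regions adjoined each other, so that the caller divided 1 stretch. The maps of 12 such genes show how they spread.

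**Figure D2:**
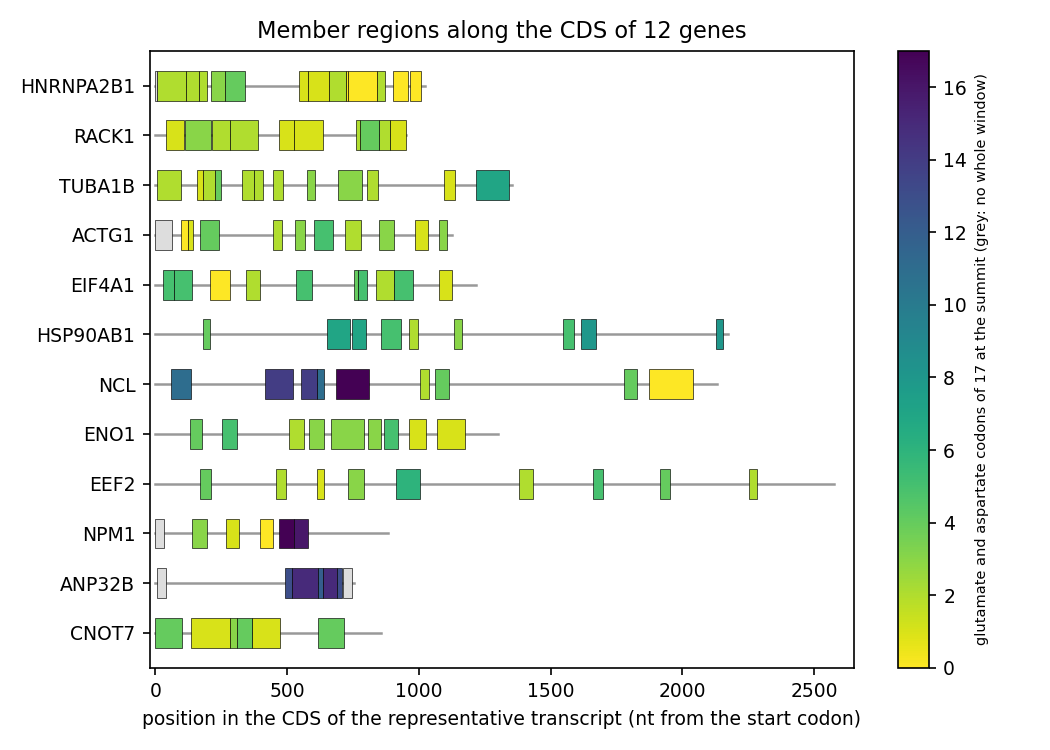
Strong repeated CDS regions along the CDS of 12 genes, with distance from the start codon in nt on the x axis and 1 gene per row. Bar colour is the number of acidic codons among the 17 at the summit, and NPM1, ANP32B and NCL hold dark bars where 9 or more were acidic, while HNRNPA2B1, RACK1 and TUBA1B hold pale bars along most of the CDS.

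Within HNRNPA2B1 the 14 regions had from 61 to 265 reads in replicate 1 and from 57 to 265 in replicate 2. The windows of its last exons, which encode the glycine-rich end of the protein, held up to 51% G and 5.88% to 13.7% C, with 0 to 2 acidic codons. HNRNPA3, a close relative, had 8 regions, and its last 5 windows held from 35.3% to 43.1% G. The 25 nt at the summit also occur in a gene elsewhere in all 8 HNRNPA3 regions, so these may count reads of another gene. In NCL, 5 of the 9 windows held 11 to 17 acidic codons, with 51 to 214 reads in replicate 1 and 60 to 248 in replicate 2. The NCL region at chr2:231455417-231455583, with 88 and 133 reads, held none but was 54.9% G. So within these genes the acidic and the glycine-coding stretches both carried regions.

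Genes with many regions differed in how far their windows departed from the whole CDS, peaks included. Mean G over the windows was above that of the CDS in 32 of the 33 genes with 5 or more regions, by a median of 3.86 percentage points, and mean C was below it in 30. No such count over other genes is given. By another measure, the strongest window against CDS outside peaks, G was higher in 87% and 87.7% of all genes with a CDS peak. The gap in G between windows and whole CDS was wide in LDHB, a lactate dehydrogenase, with 35.3% against 26.1%. It was also wide in GAPDH, with 34.3% against 26.5%, and in EEF1G, an elongation factor subunit, with 35.0% against 28.2%. It was small or absent in others. Mean G over the windows of RACK1 was 26.3%, as in its whole CDS (26.4%), and mean C was 28.2%, against 28.5%. In TUBA1B the windows held 28.6% G and 27.8% C, against 26.3% and 27.7% for the CDS. In EEF1A1, the elongation factor that brings aminoacyl-tRNA to the ribosome, G was 26.2% in both. In ANP32B windows held 44.3% G and 3.14% C, against 29.6% and 14.5% for the CDS.

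The deadenylase CNOT7 was the single CCR4-NOT subunit, of 11 with a CDS peak in both libraries, that held a member. Its 6 regions had 196 and 282, 98 and 153, 177 and 258, 80 and 108, 172 and 227, and 105 and 150 reads in replicates 1 and 2. In 3 of the regions the 25 nt at the summit also occur in CNOT7P1, CNOT7P2 or AC104806.1. These had 98, 172 and 105 reads in replicate 1, which may include reads of those genes. All 6 were higher in replicate 2, with log2 ratios from 0.40 to 0.64. They covered 62.7% of the 855 nt of its CDS, and peaks of any height covered 96.5%, the 7th highest share of 278 genes with a member. Of the reads in CNOT7 peaks 99.3% and 100% lay in the CDS, and 0.655% and 0% in the 3′ UTR. In HNRNPA2B1 the 3′ UTR held 13.1% and 11.1%, while in TUBA1C and ENO1 it was 0% in both libraries. G in the CNOT7 windows averaged 25.2%, beside 23.0% for its CDS. Among the 20 adaptor proteins of the complex with a CDS peak in both libraries, 0 held a member. Over all protein-coding genes with such a peak the share was 3.24%. With 11 subunits and 20 adaptors these counts cannot be told apart from it.

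Genes with a member included many that are known for abundant messages. Of 8783 protein-coding genes with a CDS peak in both libraries, 285 (3.24%) held a member, against 95 of the 398 on any of 24 gene lists (23.9%). The lists were drawn up with earlier results of these data known, and RNA levels were not measured, so the higher share cannot be told apart from abundance. The genes with a member also had a shorter CDS, with a median of 726 nt against 1389 nt for the others, and a larger part of it under peaks of any height, 54.2% against 15.6%.

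Members were found in 14 of 24 hnRNP genes (58.3%, 52 regions), 15 of 27 nuclear chaperones and chromatin proteins with acidic stretches (55.6%, 53 regions), and 6 of 12 tubulins and actins (49 regions). The 25 nt at the summit also occur in another gene in 9 TUBA1B, 9 TUBA1C, 6 TUBA1A and 0 TUBB4B regions. For the actins these were 5 ACTB and 3 ACTG1 regions. Among translation factors, 5 of 10 elongation factors had 30 regions and 6 of 30 initiation factors 18. EEF2, which moves the ribosome along the message, had up to 174 and 137 reads in replicates 1 and 2, and EEF1A1 171 and 147. Summit sequences of 25 nt were shared with another gene in 8 EEF1A1, 6 EEF1G, 3 EIF5A, 1 EEF1B2 and 0 EEF2 regions. Among 16 glycolytic enzymes 7 held 37 regions, led by ENO1 with up to 145 and 155 reads and GAPDH with up to 171 and 178. Of 16 serine- and arginine-rich splicing factors 7 held members, led by SRSF7 with 4 regions and SRSF3 with 3.

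Among chaperones, members were found in 6 of 15 heat shock proteins (23 regions), of which HSPD1 and HSPE1, with 4 and 2 regions, are the mitochondrial chaperonins, and in 4 of 8 subunits of the actin- and tubulin-folding chaperonin CCT (8 regions). HSP90AB1 had up to 117 and 125 reads, HSP90AA1 170 and 136, CCT3 110 and 130 and CCT4 114 and 135. In the endoplasmic reticulum the calcium-binding lectin chaperones CALR and CANX had up to 109 and 145, and 84 and 88. Of mitochondrial carriers and ATP synthase or oxidase genes 5 of 16 held members, and of importins, exportins and Ran factors 4 of 24.

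Shares nearer the 3.24% background came from proteasome subunits (3 of 31), nucleolar ribosome assembly factors (2 of 25), motors and cytoskeletal giants (1 of 20, VIM with 63 and 83 reads), aminoacyl-tRNA synthetases (1 of 20, SARS with 67 and 80), replication factors (1 of 14, MCM7) and cohesin and centromere genes (1 of 13, SMC1A). Of 19 RNA helicases 2 held members, and of 15 poly(A)-binding and decay factors 2, PABPC1 with up to 123 and 96 reads and PABPN1 with 54 and 52. The poly(A)-binding protein PABPC1 had 3 regions. Of the interferon response genes, not expected to be active in this line, 1 had a CDS peak in both libraries and 0 held a member, and none of 16 genes of other tissues had such a peak.

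**Figure D3:**
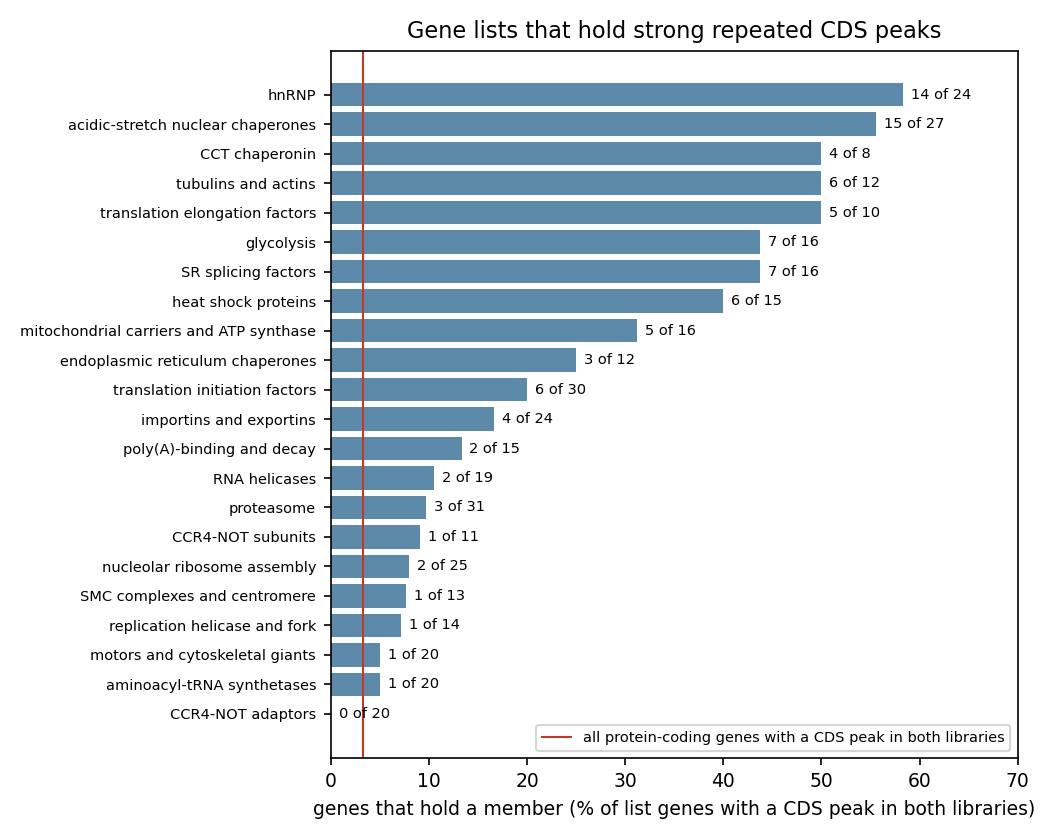
Percent of the genes with a CDS peak in both libraries that held a strong repeated CDS region, x axis, for 22 gene lists, y axis. The line marks 3.24% for all protein-coding genes, and hnRNP genes (58.3%) and acidic-stretch nuclear chaperones (55.6%) have the longest bars.

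The rule used reads, strand and place, not base composition. It asked for peaks that overlap between the libraries, so both gave much the same windows. The SDs over libraries below therefore cannot measure replicate spread of composition. For each gene the summit with the most reads was taken, and the 51 nt in frame around it were set beside the part of the same CDS that lay outside all peaks of both libraries. This was possible for 205 genes in each library. Left out were 48 and 50 genes with under 99 nt outside peaks, 17 and 16 whose window ran past the end of the CDS, and 12 and 14 whose summit was not in the representative transcript. Genes with nearly all of the CDS under peaks are therefore not in these values.

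Windows were rich in G and poor in C. They held 36.4% G ± 0.473 (SD, n = 2 libraries) on average, against 24.5% in the CDS outside peaks, and 15.3% C ± 0.115, against 26.6%. The median difference over genes was 11.5 percentage points of G in replicate 1 and 12.1 in replicate 2, and for C -11.7 and -11.8. G was higher in the window in 194 and 196 of the 205 genes (94.6% and 95.6%), where the strongest window of any gene with a CDS peak was higher in 87% and 87.7%. C was lower in 191 and 187 genes (93.2% and 91.2%), against 82.7% and 82% for any gene. Against the whole CDS, peaks included, the mean difference of both libraries was smaller, at 7.66 points of G beside 11.8 and -8.15 of C beside -11.8. The direction thus belongs to CDS peaks at large, and the members' counts lie above that background. Genes with a member had a median of 54.2% of the CDS under peaks, against 15.6% in the others. The CDS outside peaks is thus a smaller part in them, and what this adds to the gap was not tested. A and T moved little, with median differences of 1.84 and 1.42 for A and -1.40 and -2.18 for T, so G and C together hardly changed (-0.03 and 0.89).

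The difference was largest at the summit. In bins of 10 nt, G was 39.7% and 41.1% in the bin that starts at the summit, and 29% and 29.3% in the bin from 70 to 61 nt upstream. C was 12.8% and 12.9% at the summit, against 21.6% and 21% upstream and 23.2% and 23.1% from 60 to 69 nt downstream. Beyond 60 nt on either side G ran from 27.2% to 30.6% in replicate 1 and from 26.2% to 30.8% in replicate 2, so it stayed above the 24.5% of the CDS outside peaks. The profile covers more genes than that value, from 206 to 270 per bin in replicate 1, and its flanks include other peaks. Both libraries traced the same course, as the profile of bases around the summits shows. The rule asked for overlap, and summits were 2 nt apart at the median, so both libraries read much the same bases. Their likeness here is therefore no measure of repeatability.

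**Figure D4:**
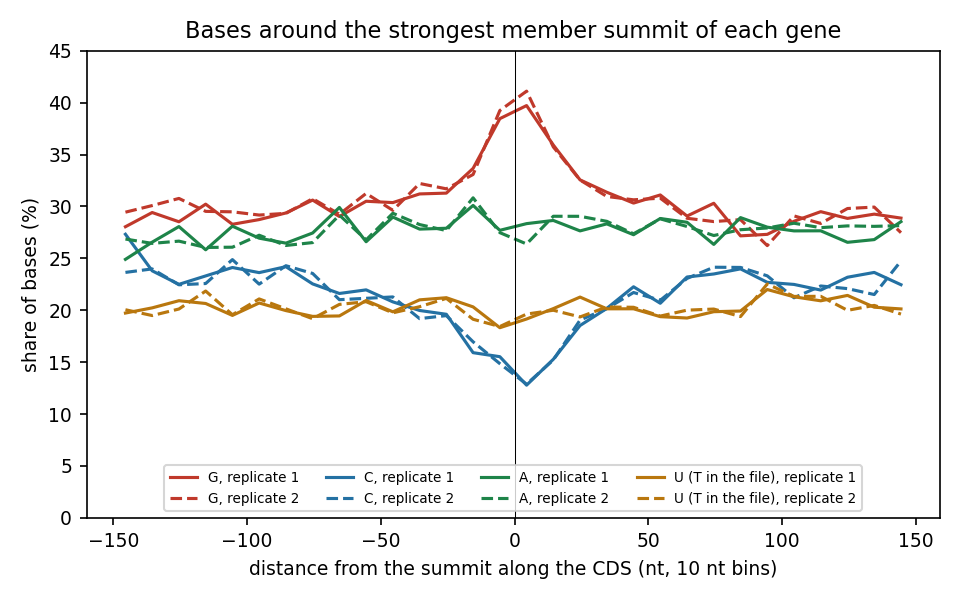
Percent of each base, y axis, in bins of 10 nt by distance from the summit in nt, x axis, over 1 summit per gene, for both libraries. G peaks at the summit at 39.7% and 41.1%, and C is lowest there at 12.8% and 12.9%.

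Much of the G lay at the first base of codons. G made up 50.4% ± 0.994 of first bases in the windows against 30.9% outside, 23.2% ± 0.507 of second bases against 17%, and 35.5% ± 0.0812 of last bases against 25.2%. C was lower at all 3 positions, and most at the last, with 18.4% ± 0.426 against 31.6%. The last base of a codon often leaves unchanged the amino acid, so the windows differed from their CDS also at bases that the protein sequence leaves free. Among glutamate codons GAG took 54.3% and 55.9% in the windows against 49.8% and 49.4% outside. Among aspartate codons GAT took 63.2% and 62.3% against 53.1% and 53.5%, and among lysine codons AAG took 70.6% and 65.4% against 54.2% and 53.9%. Glutamine had no common direction, with CAG at 70.7% of its codons against 73.5% in replicate 1 and 75.6% against 72.3% in replicate 2.

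By codon, acidic residues stood first. Glutamate codons made up 15.3% ± 0.0203 of the window against 6.34% of the CDS outside peaks, and aspartate codons 10.6% ± 0.0203 against 4.82%. Together they came to 25.9% and 25.8% of codons in replicates 1 and 2. They were above the rest of the CDS in 154 and 150 of 205 genes (75.1% and 73.2%), close to the 70.3% and 70.9% for any gene with a CDS peak, so the share of genes is not particular to the strong regions. The median difference was 10.0 and 10.5 percentage points, beside 5.29 and 5.67 over those genes. As for G, less of the CDS lay outside peaks in genes with a member, and what this adds was not tested. Against the whole CDS the members' mean of both libraries was 6.75 beside 10.3, and no such value is given for any gene.

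Glycine codons, which begin with GG, made up 10.9% ± 0.528 of windows against 6.44% outside peaks, valine codons (GTN) 8.54% ± 0.0609 against 5.27%, and arginine codons 7.80% ± 0.203 against 5.59%. Alanine codons also begin with G but have C at the second base, and they were lower, at 5.11% ± 0.446 against 7.98%. Proline codons (CCN) were at 2.14% ± 0.264 against 6.74%, and serine codons at 4.61% ± 0.142 against 7.49%. Lysine, the basic residue with codons of purines only, was at 6.73% ± 0.0203 against 7.29%. Of single codons GAG had 8.41% against 3.15%, GAA 6.84% against 3.20%, GAT 6.66% against 2.57% and GGA 3.92% against 1.30%, while CAG had 1.98% against 3.56% and CCC 0.689% against 2.18%.

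**Figure D5:**
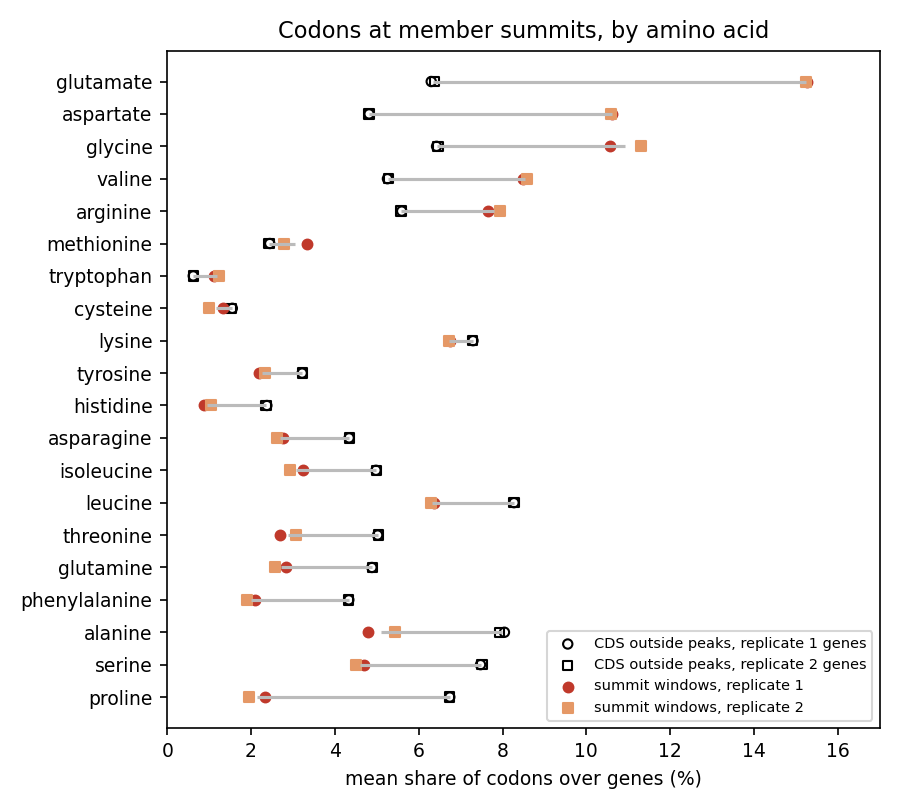
Mean percent of codons by encoded amino acid in the 17-codon windows of strong repeated CDS summits, against the CDS outside peaks of the same genes, over 205 genes per library. Glutamate (15.3% against 6.34%) and aspartate (10.6% against 4.82%) lie farthest above equality, and proline (2.14% against 6.74%) lies below it.

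The acidic codons did not carry the whole difference. In the 71 and 70 genes whose window held 0 to 2 of them, G was still 9.03 and 9.57 percentage points above the rest of the CDS, and higher in 62 and 65 genes, and the C difference was -8.45 and -6.97. With 5 or more acidic codons (70 and 74 genes) G was 13.8 and 14.5 points higher and the C difference was -16.0 and -15.8. In the 21 and 20 windows with at least 4 glycine codons and 0 to 2 acidic ones, such as that of HNRNPA2B1, G was 15.3 and 14.9 points higher. These splits of the windows were made by codons that themselves contain G, and are descriptions.

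Counting every region once per locus, 582 had a whole window, and 55 of these (9.45%) held 9 or more acidic codons out of 17. They lay in 34 genes. The same share is not given for CDS peaks at large or for CDS outside peaks. It may thus not be particular to the strong regions. Of the 55 windows 27 were in 10 genes of the acidic-stretch list, and the other 24 genes were off it. Off the list, and named after their values were seen, the windows with 15 or more were in CENPB, a centromere protein, with 64 and 100 reads, PELP1, a nuclear co-regulator, with 51 and 51, and PPM1G, a phosphatase, with 56 and 63. The amyloid precursor gene APP held 14, with 83 and 75 reads, and CALR 14, with 95 and 145.

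Acidic windows lay more often late in the CDS. Their median position was 0.742 of the way from start to stop codon, against 0.481 for the 245 windows with 0 to 2 acidic codons, and 25 of 55 (45.5%) were in the last 20% of the CDS, against 34 of 245 (13.9%). In HMGB1 the window was at 0.957, in CALR at 0.932 and in SET at 0.906, while 17 of the 55 lay before the middle of the CDS, among them that of NCL with 17 acidic codons, at 0.354. The windows are not independent, since NCL and ANP32B gave 5 each and ANP32A 4, and some windows overlap. The 2 of NPM1 held codons 162 to 178 and 168 to 184, so the same codons count in both. Taken over all genes, members had no such lean. The strongest summit per gene lay at a median of 0.507 and 0.492 of the CDS over 270 and 271 genes, and in replicate 1 stretches of 20% of the CDS, from start to stop, held 17.8%, 20.4%, 21.5%, 22.6% and 17.8% of them. The median distance to the nearest exon junction was 39 and 40 nt, beside 38 nt for all bases of the same CDS.

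The 101 nt around the summit were predicted to fold slightly less than other stretches of the same CDS. The median minimum free energy was -22.4 kcal/mol in replicate 1 and -22.5 in replicate 2, against -24.8 and -24.5 along the CDS. Folding was weaker at the summit in 151 of 236 and 149 of 232 genes, and the median difference over all of these genes was 2.11 and 2.003 kcal/mol. The same share for CDS peaks at large is not given here, so this may not be particular to the strong regions. Predicted folding depends on base composition, which also differed, and its part in this was not tested.

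Short motifs were searched as written, on the transcript strand only, in the 51-nt windows of 197 and 198 genes and in all 51-nt windows outside peaks of the same CDS. GAGGAG was in 16.2% and 20.2% of summit windows, against 2.56% and 2.68% outside. GAAGAA was in 18.3% and 16.2% against 4.66% and 5.07%, and GATGAT in 12.2% and 11.6% against 2.004% and 2.25%. GGACT, an m6A-type sequence, was in 12.2% and 7.58% against 1.64% and 1.63%. CAGCAG went the other way, with 1 and 2 windows (0.508% and 1.01%) against 5.51% and 5.48%, and CCTCCC was in 0 and 1. The first 3 repeats are pairs of acidic codons when in frame, so they count much the same windows as the codons do. In the strongest window of any gene with a CDS peak, the first repeat was in 10.2% and 11.5%, against 3.83% and 3.91% outside. The second repeat was in 10.4% and 9.82% of those windows, against 4.95% and 4.96% outside. The excess of both is thus shared in part by CDS peaks at large. No such share is given for the other sequences named here. Among all hexamers the 20 with the largest excess each held GA and none held C. The leading one, agagga, was in 18.8% and 20.7% of windows against 1.64% and 1.70%. The 20 with the largest deficit all held C.

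The full Pumilio element of 3′ UTRs was in few windows, though its TGTA core was more frequent than elsewhere in the CDS. TGTA was in 14.2% and 15.2% of windows, against 7.32% and 7.35% outside peaks. The Pumilio element TGTANATA was in 1 of 197 and 1 of 198 summit windows (0.508% and 0.505%), against 0.0198% and 0.0197% of windows outside peaks. In the strongest window of any gene with a CDS peak it was in 0.451% and 0.45%, so the members' share was near that background. Of all 582 windows 1 held the element. That one lay in DEK, an acidic chromatin protein, at chr6:18255764-18255814 (minus strand, exon 6 of 11), and is printed with the element in capitals.
DEK: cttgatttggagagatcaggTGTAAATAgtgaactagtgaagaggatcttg
The DEK region had 55 and 62 reads. Sites for let-7 (CTACCTC), miR-17 (GCACTTT) and miR-92 (GTGCAAT) were in 0 windows of each library at 1 window per gene, and the miR-101 site (GTACTGT) in 1 of each. Over all 582 windows the let-7 site was in 2, the miR-17 site in 3, the miR-92 site in 1 and the miR-101 site in 3. These letters are short and these counts say only whether they occur in these windows.

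Peaks of equal strength in 3′ UTRs had another composition. By the same read rule they came to 271 regions in 203 genes. Around the strongest summit per gene (174 and 173 genes), C was again lower than in the rest of the UTR, with a difference of -7.74 and -7.52 percentage points, but G was 4.19 and 4.30 points higher and T was 5.38 and 5.49 points higher. The Pumilio element was in 18 of these windows in each library (10.3% and 10.4%), beside the 0.508% and 0.505% of CDS windows. Its share in the rest of the UTR, or in 3′ UTR peaks at large, is not given here. The higher share may thus not be particular to strong 3′ UTR peaks. C was lower at both kinds of summit. The 2 kinds of regions come from partly different genes, and the difference between them was not tested.

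Within the CDS the composition followed the number of reads. Among peaks found in both libraries, those of 3 to 9 reads had a median G difference of 6.66 and 6.64 percentage points (5872 and 5569 genes), those of 10 to 49 reads 9.18 and 9.51 (2998 and 3532 genes), and the strong regions 11.5 and 12.1. The C differences, from the weakest class to the strongest, were -6.69 and -6.39, -8.64 and -8.62, and -11.7 and -11.8. The differences in acidic codons were 5.02 and 4.91, 7.36 and 7.37, and 10.0 and 10.5. The size of the difference was larger in each stronger class, in both libraries. The classes hold different genes, which may have unlike parts of the CDS outside peaks. Within the genes with a member G went in the same order, with 5.30 and 2.33 for 3 to 9 reads (66 and 41 genes), 8.21 and 6.95 for 10 to 49 reads (193 and 197 genes), and 11.5 and 12.1. Peaks of 3 to 9 reads were also narrower, at a median of 26 nt against 51 and 50 nt, and what width adds was not tested.

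Values on either side of the limit of 50 reads are given as a description. Peaks of 50 to 54 reads that met the rule (112 and 63) had 34.8% and 33.4% G, 17.9% and 17.5% C, and 24.2% and 22.7% acidic codons in their windows. Peaks of 45 to 49 reads that otherwise met it (116 and 55) had 33.4% and 32.7% G, 17.9% and 18.4% C, and 19.5% and 21.5% acidic codons. G and acidic codons were higher just inside the limit in both libraries.

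Not all members had a summit sequence that occurs in 1 gene only. The 25 nt at the summit occurred in a transcript of a gene elsewhere in 219 of 626 regions (35.0%), in 146 of them in pseudogenes only, and in 71 in another protein-coding gene. Tubulins and retrocopies such as SETSIP are among these. Without all such regions the median G difference was 11.9 percentage points, beside 11.8 with them. In 210 regions the summit also lay in a UTR of another isoform of the gene.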

How the data were processed

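Each library had 1 deposited list of peaks on GRCh38, so the authors called peaks per library and did not pool them. The deposited file names give CLIPper as the caller and a filter on score, mismatches and multiple loci. The submitters' processing notes name STAR 2.7.11, cutadapt 4.2 and UMI-tools 1.1.4, with neither role nor order. For CLIPper, version and annotation were not given in the sources used here, nor was a caller setting. The authors deposited a p-value for each peak in the score column, whose adjustment is not stated. The name column held the gene identifier and the number of reads, which is not normalised. A read can count in several peaks and gene entries, so depth is unknown and no interval is given.

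Gene models and sequences came from GENCODE 29, matched by gene identifier without version. Coordinates are 1-based. A summit is the middle of the deposited thick interval. Windows of 51 nt (17 codons) were compared with CDS outside all peaks of the same transcript, leaving out genes with under 99 nt of it, and means and SDs were taken over 2 libraries. Folding of 101 nt used ViennaRNA 2.7.2. Scripts ran in Python 3.11.15 with numpy 2.4.6 and pandas 2.3.3 and were tested on simulated data. With 1 group of 2 libraries no test over samples was possible, and none was run over genes. The rule, gene lists, motifs and measures were chosen with earlier results of these data known.

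The genes named were the 10 with the strongest region, the 10 with the most regions, the 2 per list with the most reads, the 5 highest and 5 lowest ratios between libraries, the 5 windows richest in purines and the 5 richest in acidic codons, windows with a Pumilio element, CCR4-NOT subunits and the widest region. Other genes were chosen after their values were seen. A few items that the rule names are not reported here.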

Additional observations from a re-analysis of the deposited data

How the results depend on the processing

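The G difference of 11.8 percentage points (mean of both libraries) was 14.0 with windows of 33 nt, 9.28 with 99 nt, 10.6 over all summits, 7.66 against the whole CDS, 11.1 and 12.4 at minimums of 30 and 100 reads, and 11.3 to 11.8 when each library was used alone without the other. The C difference of -11.8 was -13.3, -9.29, -8.65, -8.15, -10.6 and -10.7 in the same order, -11.4 to -11.1 with 1 library, and -11.6 without shared 25-mers. The acidic codon difference of 10.3 was 10.9, 7.57, 6.87, 6.75, 9.68 and 11.9, and 9.14 to 10.1 with 1 library. In windows with 0 to 2 acidic codons, chosen after seeing the data, G differed by 9.30 and C by -7.71. The A difference of 1.63 turned to -0.470 over all summits. Over all genes with a window GAGGAG was in 11.9% of windows of 33 nt and 25.1% of 99 nt, and in 14.7% to 17.5% with 1 library, beside 17.6%. The relative position of 0.499 was 0.486 over all summits and 0.482 to 0.489 with 1 library.

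The 644 regions became 1718 at 30 reads, 118 at 100 reads, and 843 to 1141 with 1 library, where no repeat is asked for. The share of listed genes with a member, 23.9%, was 41.5% and 9.30% at 30 and 100 reads (all coding genes 7.83% and 0.82%) and 25.9% to 30.9% with 1 library. The gap in G between strong regions and peaks of 3 to 9 reads, 5.19 points, was 8.02 within genes with a member, a setting added after seeing the data that leaves few genes in the weak class. No paired analysis was possible because there is 1 group.

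Reads are whole numbers per peak with unknown depth, so small differences between libraries cannot be read. No input library was analysed here, so the base composition of the peaks cannot be told apart from that of the library.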
